A study of Mus musculus with 12 samples.

Results

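Death receptor signalling was followed through 6 genes: the receptor gene Fas, the adaptor gene Fadd, the protease gene Casp8, its regulator Cflar, and the kinase genes Ripk1 and Ripk3. They were chosen by name, as the core of the pathway, from the 24421 gene symbols of the count table. Earlier results of these data were known at that choice. All 6 passed the filter on low counts. The libraries came from regulatory T cells (Tregs) of mice with or without tamoxifen-driven deletion of CD25, the interleukin-2 receptor alpha chain, in Tregs. There were 4 groups of 3 libraries, central Tregs (cTreg) and effector Tregs (eTreg), parted by a surface marker gate, each with CD25 intact (WT) or deleted (KO). All mice, WT included, received tamoxifen (2 mg/kg, intraperitoneal, 5 days), and cells were taken on day 10. All carried the R26tomato+/+ reporter and Foxp3eGFPERT2+/+, the tamoxifen-dependent allele at Foxp3, beside CD25FL/FL or CD25WT/WT. The genotype field gives CD25FL/FL to the WT libraries and CD25WT/WT to the KO libraries, the reverse of the titles and the cell type field, which were followed here. Each library pooled spleen and lymph nodes of 2 to 3 mice, so p-values measure the spread between pools. KO cells were also gated as CD25-low, so deletion and gate cannot be told apart.

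Fas is a cell surface receptor that, when bound by Fas ligand, gathers the adaptor FADD and through it caspase-8, which cleaves itself into an active protease and starts apoptosis. The protein of Cflar, cFLIP, resembles caspase-8 without its protease activity and joins the same complex, where its long form limits full caspase-8 activation. RIPK1 is a scaffold and kinase below the tumour necrosis factor receptor, and RIPK3 drives necroptosis, a lytic death that the caspase-8 and cFLIP pair holds back by cleaving these kinases. In T cells the Fas route is known for removing activated cells.

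Promoter windows are shown for the 3 members that passed the test in a KO comparison. They are the 250 bases before an annotated RefSeq start on GRCm38.p6, each on the gene's own strand, and capitals mark a match to TTCNNNGAA, the core of sites bound by STAT factors such as STAT5, which acts below the interleukin-2 receptor. All 6 members matched the promoter table, with 7 windows. The Casp8 window lies inside the gene as GENCODE draws it, before a downstream start.
Fas, chr19:34290409-34290658, plus strand: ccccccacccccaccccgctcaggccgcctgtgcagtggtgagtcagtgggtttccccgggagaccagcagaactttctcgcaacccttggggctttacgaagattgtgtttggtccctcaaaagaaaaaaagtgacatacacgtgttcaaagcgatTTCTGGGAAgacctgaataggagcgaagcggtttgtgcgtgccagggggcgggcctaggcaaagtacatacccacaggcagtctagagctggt
Casp8, chr1:58802252-58802501, plus strand: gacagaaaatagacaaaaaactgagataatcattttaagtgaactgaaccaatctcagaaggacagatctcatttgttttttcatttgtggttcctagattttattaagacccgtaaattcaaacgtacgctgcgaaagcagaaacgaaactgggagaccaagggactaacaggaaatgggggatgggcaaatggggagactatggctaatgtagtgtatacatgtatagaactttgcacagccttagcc
Cflar, chr1:58711241-58711490, plus strand: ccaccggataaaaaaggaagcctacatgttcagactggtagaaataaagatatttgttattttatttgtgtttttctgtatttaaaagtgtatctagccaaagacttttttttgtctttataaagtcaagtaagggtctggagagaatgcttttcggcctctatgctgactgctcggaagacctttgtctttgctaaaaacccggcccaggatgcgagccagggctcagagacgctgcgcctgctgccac
The Fas window held 1 match, at -93 to -85 from the start, and the Casp8 and Cflar windows held none. Among the other members, 1 of the 2 Ripk1 windows held 2 matches, and the windows of Fadd and Ripk3 held none. TTCNNNGAA reads the same on both strands, and 7.02% of all 32851 windows of this length held it. Neither the interferon-stimulated response element nor the NF-kB consensus was found in a member window on either strand, against 2.98% and 3.9% of all windows. No match overlapped another motif. A match is a string of letters, not a measured site, and the absence of one says nothing about the factor. The Casp8 and Cflar windows were the poorest in G and C of the 7, at 39.6% and 42.8% against a median of 52.4% over all windows, while Fas had 56.4%.

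Total counts ranged from 14567313 to 19121577 per library. Il2ra, the gene of CD25, ranged from 523 to 580 CPM (a gene's counts scaled to the library's TMM-adjusted total) in WT cTreg and from 112 to 122 in KO cTreg. It ranged from 464 to 562 CPM in WT eTreg and from 116 to 132 in KO eTreg, so the titles and the targeted gene point the same way. The T cell and Treg markers Cd3e, Cd4, Foxp3, Ikzf2 and Ctla4 summed to between 2235 and 4107 CPM. The sum was higher in KO than in WT in both subsets, while Foxp3 was lower. Foxp3 was at 385 to 407 CPM in WT cTreg and 217 to 233 in KO cTreg. In WT eTreg it was at 231 to 256 CPM, and in KO eTreg at 158 to 187. Ccr7, a lymph node homing receptor of central T cells, was at 198 to 342 CPM in the cTreg libraries against 51.8 to 85.9 in eTreg. Rn45s, a ribosomal RNA precursor, took 22.4% to 24.4% of counts in WT cTreg, 18.1% to 18.5% in KO cTreg, 4.11% to 4.34% in WT eTreg and 3.19% to 3.32% in KO eTreg. Its part in the results below was tested only by rescaling. Markers of other cells were low: 6 B cell markers summed to 7.63 to 15.4 CPM, nearly all Cd79b with Ms4a1 at or below 0.277 CPM, and 6 myeloid markers summed to 2.55 to 11.5 CPM, highest in KO cTreg.

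In KO cTreg, 1 of the 6 members passed the test: Casp8 was lower. In that comparison 27.5% of the 12461 genes tested passed, 14.8% higher and 12.6% lower. In KO eTreg, 2 of the 6 passed, Fas and Cflar, both higher, where 6.65% of all genes passed, 3.25% higher and 3.40% lower. With the replicate number as a block within the 6 eTreg libraries, 5 of the 6 members and 1712 genes passed there. Without a block, 829 genes passed in the fit to all 12 libraries and 771 in a fit to these 6 alone. Between the subsets, Fas and Cflar were higher and Casp8 lower in WT eTreg than in WT cTreg. That is 3 of 6, against 71.5% of all genes, 35.7% higher and 35.8% lower. In KO cells 4 of 6 differed, Fas and Cflar higher and Fadd and Ripk3 lower in eTreg, against 72.0% of all genes, 36.1% higher and 35.8% lower. The difference between the KO effects of the subsets passed for 1 member, Casp8, against 3.80% of all genes, 0.803% with a positive and 3.00% with a negative value. The median log2 fold change of the 6 members was 0.08 in KO cTreg and 0.07 in KO eTreg, beside 0.00 and 0.01 over all genes. Comparisons that share a group, such as KO against WT and eTreg against cTreg in WT, share 3 libraries.

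**Figure D1:**
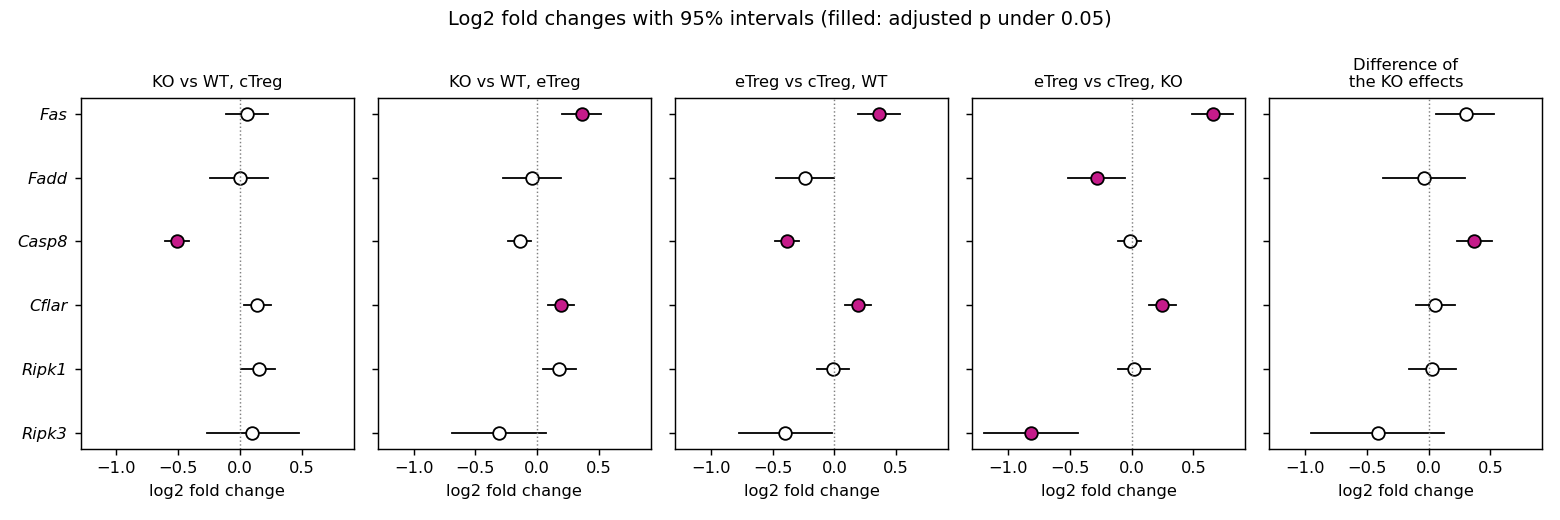
Log2 fold change (x axis) of the 6 genes (y axis) in each comparison, with 95% intervals as lines and filled points where the adjusted p was under 0.05. Casp8 is the filled point left of 0 in KO against WT cTreg (-0.51), and Fas and Cflar are the filled points right of 0 in eTreg.

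With TMM scaling Fas was higher in effector than in central Tregs, and it was highest in effector Tregs without CD25. The gene (ENSMUSG00000024778.13, chromosome 19, 34290666 to 34327772, plus strand, mm10) had 32.9, 32.4 and 31.0 CPM in replicates 1, 2 and 3 of WT cTreg, and 33.8, 33.6 and 33.2 CPM in those of KO cTreg. WT eTreg had 40.8, 40.0 and 42.6 CPM, and KO eTreg 60.6, 48.3 and 49.7 CPM. No library of 1 group overlapped another group, and KO eTreg replicate 1 stood above the rest. In eTreg, Fas rose from 41.1 ± 1.32 to 52.9 ± 6.75 CPM (SD, n = 3), 28.4% higher in KO, with a log2 fold change of 0.36 ± 0.08 (SE) and an adjusted p of 0.00769 by edgeR (quasi-likelihood, adjusted after Benjamini and Hochberg over all genes). Without KO eTreg replicate 1 that change was 0.25. In cTreg the gap between KO and WT was small, 0.06 ± 0.08, with a 95% interval from -0.11 to 0.23 and an adjusted p of 0.608 by edgeR. The difference between both KO effects, 0.30 ± 0.11, did not pass in edgeR's test (adjusted p = 0.165). Against cTreg, Fas was 0.36 ± 0.08 higher in WT eTreg and 0.66 ± 0.08 higher in KO eTreg on the log2 scale (adjusted p 0.000666 and 9.23e-07, edgeR). With an offset for transcript length and GC content, the WT value became -0.16 and did not pass, and the KO value became 0.22 and passed. The medians of all genes with this offset were -0.15 in WT and -0.08 in KO, so Fas in WT lay close to its median. In bulk RNA, fewer cells expressing a gene and less RNA per cell cannot be told apart.

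Fasl, which encodes Fas ligand, did not pass the test in either KO comparison. It was between 6.46 and 10.6 CPM in all 12 libraries. Its log2 fold change was -0.14 ± 0.15 in KO cTreg (adjusted p = 0.545, edgeR) and -0.11 ± 0.14 in KO eTreg (adjusted p = 0.742). The 95% intervals ran from -0.46 to 0.18 and from -0.41 to 0.19, so a rise as large as that of Fas in eTreg lies outside them.

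Fadd, the adaptor between Fas and caspase-8, was the lowest of the 6 genes per kilobase of exon. The gene (ENSMUSG00000031077.7, chromosome 7, 144577318 to 144582463, minus strand) had 23.4, 19.0 and 20.4 CPM in the WT cTreg libraries and 22.0, 23.2 and 17.4 CPM in their KO counterparts. It had 17.8, 16.4 and 19.1 CPM in the WT eTreg libraries and 16.9, 16.5 and 18.1 CPM in their KO counterparts. Every pair of groups compared overlapped. KO and WT had the same mean in cTreg, 20.9 CPM, with a 95% interval of the log2 fold change from -0.24 to 0.23, and in eTreg the change was -0.04 ± 0.11 (adjusted p = 0.890, edgeR). In KO cells Fadd was lower in eTreg than in cTreg, with a log2 fold change of -0.28 ± 0.11 (adjusted p = 0.0302, edgeR's quasi-likelihood test). Leaving out KO cTreg 1 or 2, or KO eTreg 1 or 2, ended that call (adjusted p at most 0.141), and so did library size without Rn45s (0.0618) and the DESeq2 Wald test (0.0708). In WT cells the value was close, -0.24 ± 0.11, and did not pass (adjusted p = 0.0627, edgeR), though it did in 5 of 21 alternatives. The antisense gene Faddos overlaps Fadd, and as no strand setting of the counting is stated in the sources used here, reads of both cannot be told apart.

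Casp8, the initiator protease of the pathway, was highest in central Tregs with intact CD25 and lower in each of the other 3 groups. The gene (ENSMUSG00000026029.14, chromosome 1, 58795374 to 58847503, plus strand) had 242, 223 and 237 CPM in the WT cTreg libraries and 162, 169 and 162 CPM in their KO counterparts. WT eTreg had 174, 183 and 182 CPM, and KO eTreg 161, 164 and 163 CPM. All 3 WT cTreg libraries lay above the other 9, the WT eTreg libraries came next, and the KO cTreg and KO eTreg libraries overlapped. In cTreg, Casp8 fell from 234 ± 9.93 to 164 ± 3.88 CPM (SD, n = 3), 29.8% less in KO, or -0.51 ± 0.05 on the log2 scale (adjusted p = 7.49e-07, edgeR). Leaving out any 1 library kept it between -0.54 and -0.49, past the threshold. In eTreg the change was -0.14 ± 0.05, with groups that did not overlap and an adjusted p of 0.0787 by edgeR. With the replicate number as a block within the 6 eTreg libraries it was -0.15 and passed (adjusted p = 0.0156), and it also passed with library size without Rn45s (-0.18), the DESeq2 Wald test (-0.14) and the length and GC offset (-0.14).

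The KO effect on Casp8 differed between the subsets. The effect in eTreg minus that in cTreg was 0.37 ± 0.07, with a 95% interval from 0.23 to 0.51 and an adjusted p of 0.00315 by edgeR. It stayed past the threshold with each library left out. With CD25 intact, eTreg had less Casp8 than cTreg (log2 fold change -0.38 ± 0.05, adjusted p = 1.10e-06, edgeR). With CD25 deleted the subsets did not pass as different, at -0.01 ± 0.05 with an interval from -0.11 to 0.08. With the length and GC offset both subset values were lower, -0.71 and -0.27, and both passed. The medians of all genes were then -0.15 in WT and -0.08 in KO. KO cTreg and WT eTreg were not compared in a test: their libraries lay at 162 to 169 and at 174 to 183 CPM.

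**Figure D2:**
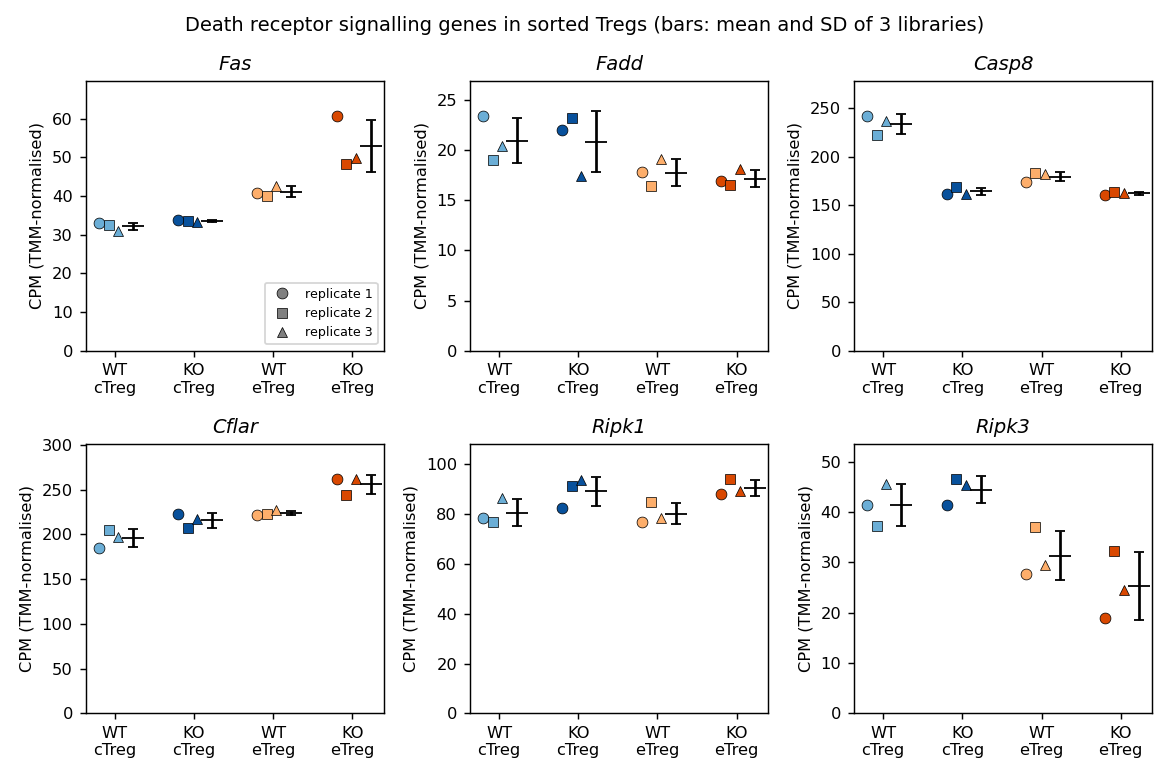
CPM (y axis, from 0) of each gene in the 12 libraries by group (x axis), with the mean and SD of 3 libraries as bars and the replicate number as the marker shape. Casp8 stands above 220 CPM in the 3 WT cTreg libraries alone, and Fas rises from near 32 CPM in WT cTreg to 48.3 to 60.6 in KO eTreg.

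Cflar, the gene of cFLIP, was lowest in WT cTreg, where Casp8 was highest, and highest in KO eTreg. The gene (ENSMUSG00000026031.15, chromosome 1, 58711508 to 58758884, plus strand) is a neighbour of Casp8, 36.5 kb away on the same strand with 1 predicted gene and no coding gene between. It had 185, 205 and 197 CPM in the WT cTreg libraries and 223, 207 and 217 CPM in their KO counterparts. WT eTreg had 222, 223 and 227 CPM, and KO eTreg 262, 244 and 262 CPM. KO lay above WT in every library of both subsets, and KO cTreg and WT eTreg met at 222 to 223 CPM. In eTreg, Cflar rose from 224 ± 2.77 to 256 ± 10.4 CPM (SD, n = 3), 14.2% or 0.19 ± 0.05 on the log2 scale, with an adjusted p of 0.0291 by edgeR's quasi-likelihood test. That call ended without any 1 of the 3 WT eTreg libraries or KO eTreg replicate 1 or 3 (adjusted p up to 0.123), and with library size without Rn45s (0.16, adjusted p = 0.0792). In cTreg the change was 0.14 ± 0.05, with an interval from 0.03 to 0.25 and an adjusted p of 0.0560 by edgeR, and it passed without WT cTreg replicate 2 (0.17) or KO eTreg replicate 2 (0.14). The difference of the KO effects was 0.05 ± 0.07 (adjusted p = 0.755, edgeR).

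Between the subsets Cflar was higher in eTreg, by 0.19 ± 0.05 in WT and 0.25 ± 0.05 in KO (adjusted p 0.00258 and 0.000311, edgeR). The direction of this subset difference turned with the length and GC offset, to -0.19 and -0.11, both past the threshold. The offset moved the median of all genes by -0.15 in WT, so Cflar in WT lay close to that median. Gene counts sum the long and short forms of cFLIP, which act differently on caspase-8 and could not be parted here.

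The number of Cflar reads per Casp8 read put both changes together, and is given as a description with no test. It was 0.764, 0.919 and 0.832 in WT cTreg and 1.37, 1.22 and 1.34 in KO cTreg. It was 1.27, 1.22 and 1.25 in WT eTreg and 1.63, 1.49 and 1.60 in KO eTreg. WT cTreg alone had fewer Cflar than Casp8 reads, KO cTreg and WT eTreg overlapped, and KO eTreg lay above the rest. Replicate 2 was the highest of WT cTreg and the lowest of the other 3 groups. Per kilobase of all annotated exons the ratio was 0.191 ± 0.0177 in WT cTreg, 0.300 ± 0.0179 in KO cTreg, 0.285 ± 0.00595 in WT eTreg and 0.359 ± 0.0172 in KO eTreg (SD, n = 3). The exons of Cflar sum to 12669 bases and those of Casp8 to 2893. With the longest transcript of each gene instead, the ratios were 0.330, 0.516, 0.491 and 0.619 in the same order. A change of length multiplies every group's ratio by the same factor.

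**Figure D3:**
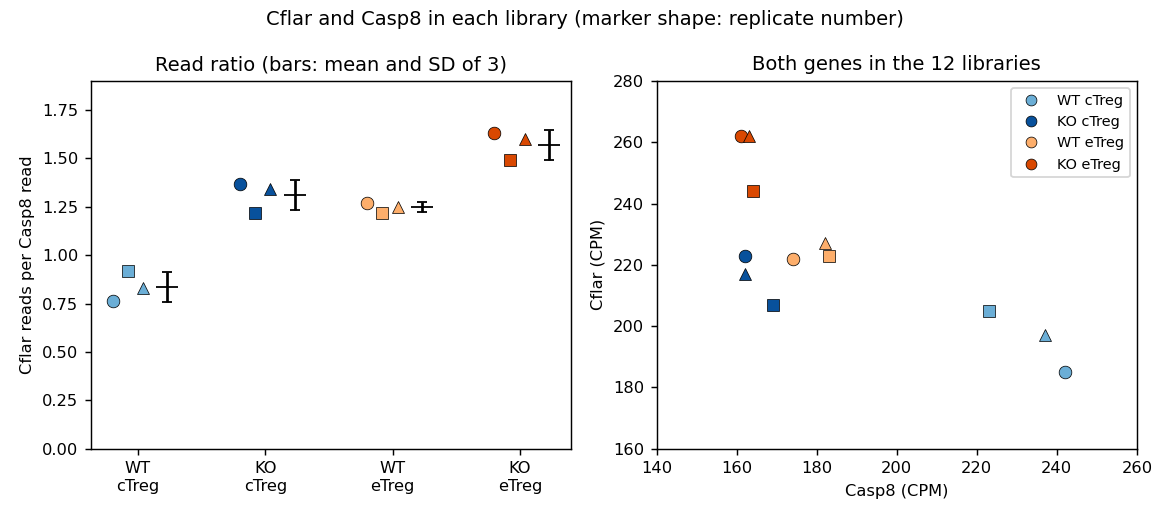
Left, Cflar reads per Casp8 read (y axis, from 0) in each library by group, with mean and SD of 3. Right, Cflar CPM (y axis) against Casp8 CPM (x axis) in the 12 libraries, both axes starting above 0. WT cTreg is the group below a ratio of 1, at 0.764 to 0.919.

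Ripk1, the scaffold kinase, differed less over the 12 libraries than any other member. The gene (ENSMUSG00000021408.15, chromosome 13, 34002363 to 34037147, plus strand) had 78.6, 76.8 and 86.7 CPM in the WT cTreg libraries and 82.6, 91.5 and 93.6 CPM in their KO counterparts. It had 76.9, 84.9 and 78.6 CPM in the WT eTreg libraries and 88.1, 94.2 and 89.4 CPM in their KO counterparts. KO and WT overlapped in cTreg and did not overlap in eTreg. The log2 fold change in KO was 0.15 ± 0.06 in cTreg (adjusted p = 0.0976, edgeR) and 0.18 ± 0.06 in eTreg (adjusted p = 0.109). In cTreg it passed without WT cTreg replicate 3 or KO cTreg replicate 1 (0.20 in each case), and in eTreg it passed with the replicate block (0.17, adjusted p = 0.0260). The subsets differed by -0.01 ± 0.06 in WT and 0.02 ± 0.06 in KO, and with the length and GC offset by -0.35 and -0.28, both past the threshold. The medians of all genes with that offset were -0.15 and -0.08. Serpinb6a and 2 pseudogenes overlap Ripk1, 2 of these 3 on the opposite strand, which adds uncertainty to its counts.

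Ripk3, the kinase of necroptosis, was lower in effector than in central Tregs among KO cells, and among the 6 genes it had the widest relative spread of replicates in both eTreg groups (coefficients of variation of 15.9% and 26.5%). The gene (ENSMUSG00000022221.14, chromosome 14, 55784995 to 55788865, minus strand) had 41.4, 37.3 and 45.6 CPM in the WT cTreg libraries and 41.5, 46.6 and 45.3 CPM in their KO counterparts. It had 27.7, 37.0 and 29.4 CPM in the WT eTreg libraries and 19.0, 32.3 and 24.6 CPM in their KO counterparts. All 6 eTreg libraries lay below all 6 cTreg libraries, by a narrow gap, and replicate 2 was the highest in both eTreg groups. In KO cells the log2 fold change of eTreg against cTreg was -0.81 ± 0.17 (adjusted p = 0.00136, edgeR's quasi-likelihood test). In WT cells it was -0.40 ± 0.17 and did not pass (adjusted p = 0.0570, edgeR), though it did in 7 of 21 alternatives. These were the DESeq2 Wald test (0.0243), limma-voom (0.0277), only the 6 libraries compared (0.00832), the replicate block over 12 libraries (0.0202), and leaving out eTreg replicate 2 of WT, or 1 or 2 of KO (at most 0.0185). KO against WT gave 0.10 ± 0.17 in cTreg (adjusted p = 0.700, edgeR) and -0.31 ± 0.17 in eTreg (adjusted p = 0.375). The eTreg value passed with the replicate block (-0.33, adjusted p = 0.00866) and without KO eTreg replicate 2 (-0.53, adjusted p = 0.0430). In the KO eTreg libraries the NK cell marker Klrb1c ranged from 0.346 to 11.4 CPM, against at most 1.85 in the other groups. Ncr1 was at or below 0.115 CPM in KO eTreg, and whether NK cells have a part in the Ripk3 values was not tested.

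Levels between genes are compared per kilobase of annotated exon. In WT cTreg, Casp8 stood at 80.9 CPM per kilobase, Ripk3 at 18.1, Fas at 15.6, Cflar at 15.4, Ripk1 at 9.67 and Fadd at 5.36. In KO eTreg, Casp8 stood at 56.2, Fas at 25.6, Cflar at 20.2, Ripk3 at 11.0, Ripk1 at 10.9 and Fadd at 4.40. Casp8 led and Fadd was last in both groups, and Fas passed Ripk3. With the longest transcript as the length, Cflar came next after Casp8 in both groups, at 29.8 and 38.9.

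Scaling moved the subset comparisons more than the KO comparisons. The length and GC offset turned the sign of Cflar and Fas between the WT subsets and of Cflar and Ripk1 between the KO subsets. Among KO comparisons it turned the sign of Fas in cTreg alone, to -0.02, which did not pass either way. That offset also put the median of all genes at -0.15 between the WT subsets and -0.08 between the KO subsets. Whether length and GC content have a part in the subset differences was not tested beyond this offset.

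**Figure D4:**
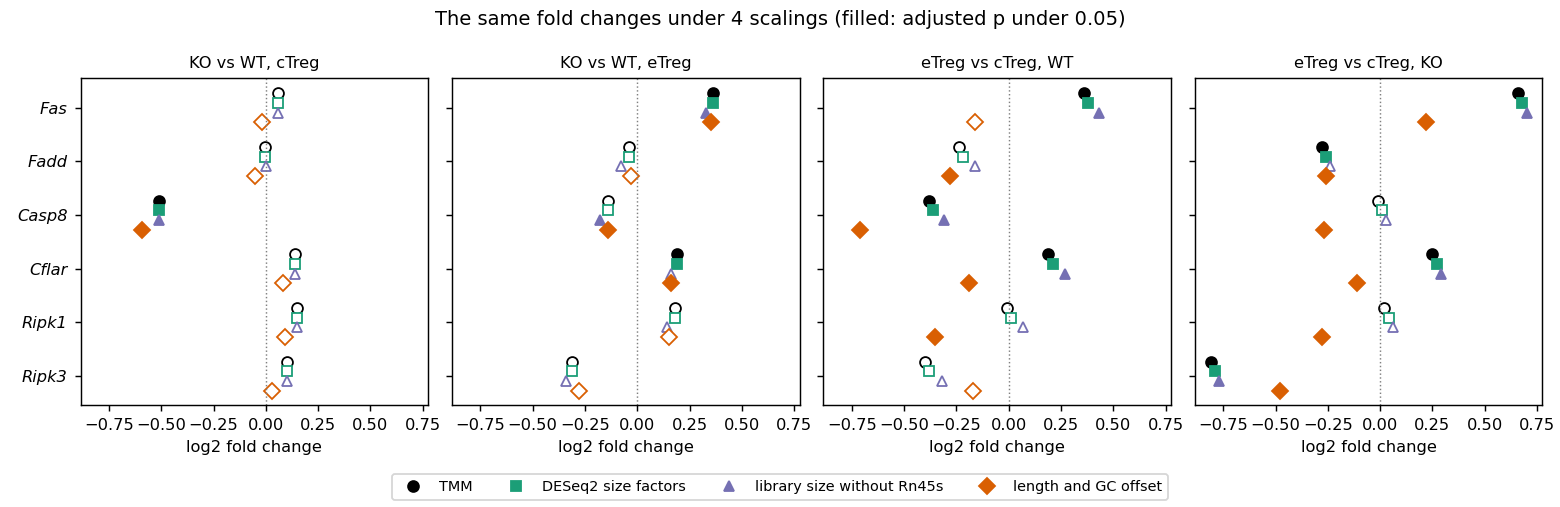
Log2 fold change (x axis) of the 6 genes (y axis) in 4 comparisons under TMM, DESeq2 size factors, library size without Rn45s, and a length and GC offset, filled where the adjusted p was under 0.05. The offset points lie apart from the others in the subset comparisons, as for Cflar in WT (-0.19 against 0.19), while Casp8 in KO cTreg is filled and left of 0 under all 4.

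Of 43 other genes of the pathway, in 6 lists by role, 41 passed the filter. In KO cTreg 8 rose and 6 fell, with a median log2 fold change of 0.10, and in KO eTreg 6 rose and 4 fell, with a median of 0.02. Over all genes 14.8% rose and 12.6% fell in KO cTreg, 3.25% rose and 3.40% fell in KO eTreg, and the medians were 0.00 and 0.01. Of the 4 ligands none rose and Lta and Tnf fell in both subsets. Lta, which encodes lymphotoxin alpha, fell from 44.4 to 16.6 CPM in cTreg (log2 fold change -1.42 ± 0.09) and from 38.9 to 13.7 CPM in eTreg (-1.51 ± 0.09). Tnf changed by -0.69 ± 0.13 and -0.70 ± 0.12. Tnfsf10, the gene of TRAIL, fell in eTreg (-0.26 ± 0.06) and gave 0.13 ± 0.06 in cTreg, which did not pass, and the difference of both passed at -0.39 ± 0.09 (adjusted p = 0.0170, edgeR).

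Among the 5 other death receptors tested, 3 fell and 1 rose in KO cTreg, where 12.6% of all genes fell and 14.8% rose. In KO eTreg 1 fell, where 3.40% of all genes did, and 5 genes are too few to set against these shares. Tnfrsf25, the receptor DR3, fell in both (-0.44 ± 0.05 and -0.39 ± 0.06). Tnfrsf1a, the main receptor of tumour necrosis factor, fell from 49.3 to 36.7 CPM in cTreg (-0.43 ± 0.09) and gave -0.25 ± 0.09 in eTreg, which did not pass. Tnfrsf10b, the mouse TRAIL receptor, fell in cTreg (-0.54 ± 0.16), a call that ended when WT cTreg 1, WT cTreg 3 or KO cTreg 1 was left out (adjusted p at most 0.0817). Tnfrsf23, a decoy receptor of TRAIL with a close copy in Tnfrsf22, rose in cTreg at a low level, from 2.14 to 4.45 CPM, and is uncertain where reads were split between the copies.

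Of the 14 adaptor and ubiquitin genes, 2 rose and 1 fell in KO cTreg, where 14.8% of all genes rose and 12.6% fell. In KO eTreg 2 rose, where 3.25% of all genes did. Tnfaip3 encodes A20, which edits ubiquitin chains on RIPK1, and it rose from 128 to 218 CPM in cTreg (0.77 ± 0.09) and from 193 to 291 CPM in eTreg (0.59 ± 0.09). Cyld, a deubiquitinase of the same complexes, passed in eTreg at 0.16 ± 0.05 (adjusted p = 0.0462, edgeR), and lost the call without any 1 of the 6 eTreg libraries or without KO cTreg replicate 2 or 3 (up to 0.156). It was also lost with library size without Rn45s (0.124), no expression filter (0.0743), the replicate block over 12 libraries (0.0632) and the length and GC offset (0.11), so 10 of 22 alternatives called it. Spata2, which links CYLD to the complex, rose in cTreg by 0.29 ± 0.06. Map3k7, the kinase TAK1, fell there (-0.16 ± 0.05), a call that did not hold when cTreg replicate 1 or 3 of WT, or 1 of KO, was left out (adjusted p at most 0.0817).

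Among the 6 other caspases tested, 3 rose in KO cTreg and 2 in KO eTreg, where 14.8% and 3.25% of all genes rose. None fell, where 12.6% and 3.40% of all genes did, and 6 genes are too few to set against these shares. Casp1 and Casp4, caspases of inflammation, rose by 1.26 ± 0.17 and 1.20 ± 0.13 in cTreg and by 0.54 ± 0.14 and 0.43 ± 0.10 in eTreg. The Casp1 call in eTreg (adjusted p = 0.0398, edgeR) was lost without any 1 of the 6 eTreg libraries, WT cTreg replicate 1 or KO cTreg replicate 1 (up to 0.14). It was also lost with library size without Rn45s (0.0552), no expression filter (0.0897) and the replicate block over 12 libraries (0.0601). The Casp4 call in eTreg was lost with that block (0.052) and when eTreg replicate 1 or 2 of WT, or 1 or 3 of KO, was left out (up to 0.103). The initiator Casp9 did not pass in either subset, at -0.03 ± 0.10 and -0.02 ± 0.09.

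Of the 8 genes of later steps, Apaf1 alone passed in each subset, where 27.5% (cTreg) and 6.65% (eTreg) of all genes passed. It encodes the scaffold of the apoptosome, the mitochondrial route to caspase-9, and rose from 60.8 to 97.1 CPM in cTreg (0.68 ± 0.06) and from 93.8 to 120.0 CPM in eTreg (0.35 ± 0.06). Of the 4 other necroptosis genes, Zbp1, a nucleic acid sensor that can engage RIPK3, rose in both, by 0.45 ± 0.07 and 0.37 ± 0.07. Mlkl, the pore former below RIPK3, was low at 1.34 to 3.72 CPM in the group means and did not pass in either KO comparison (0.69 ± 0.27 and 0.32 ± 0.21).

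**Figure D5:**
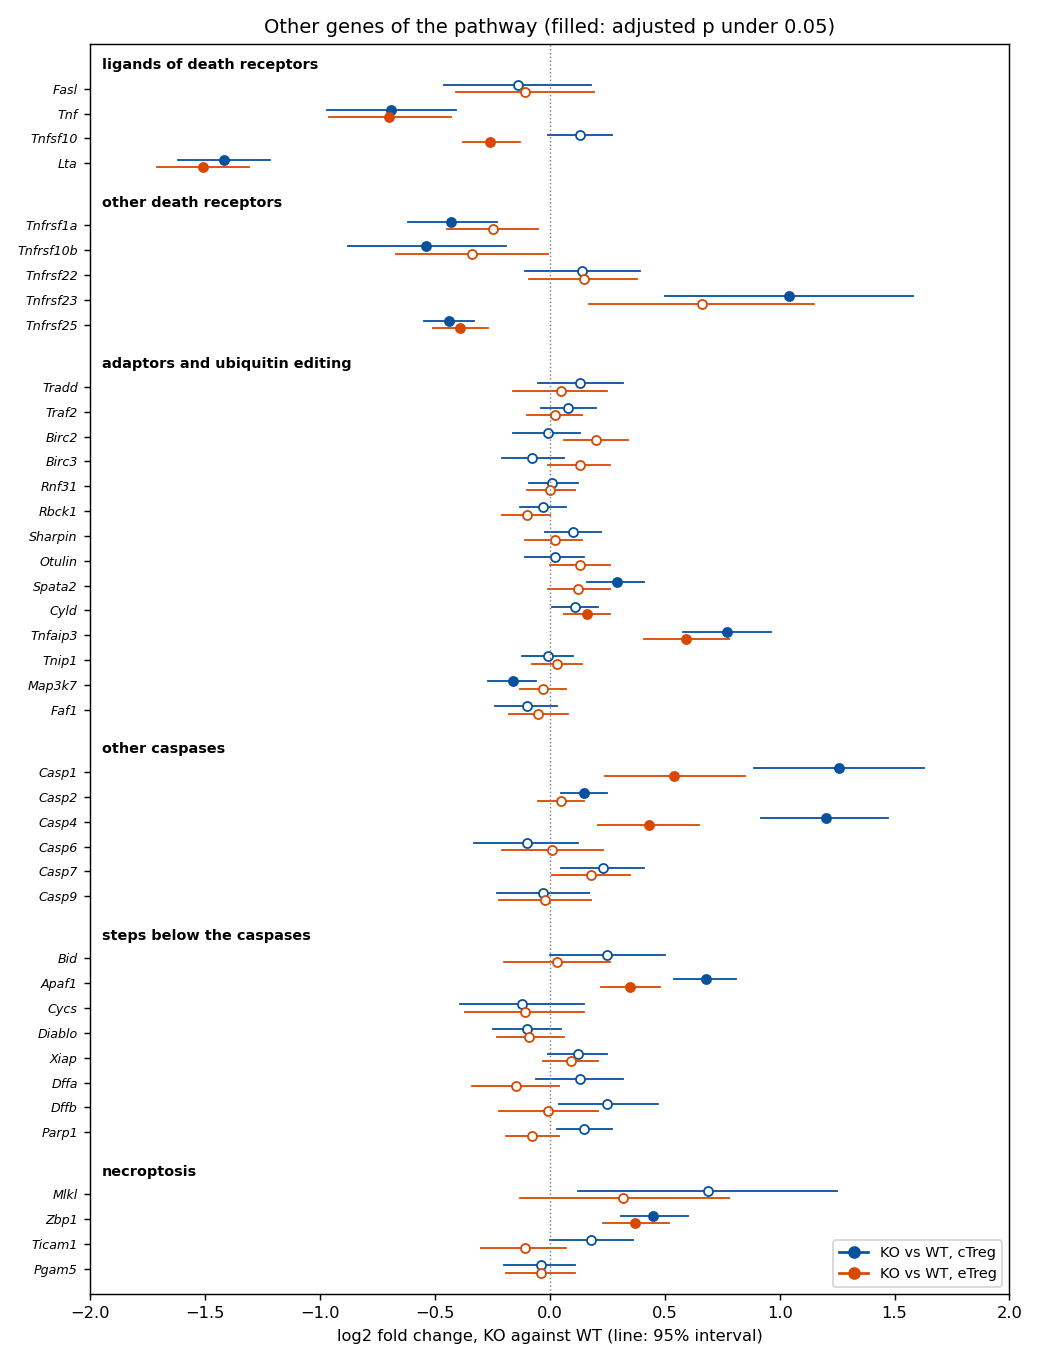
Log2 fold change, KO against WT (x axis), of the 41 other pathway genes tested, by list (y axis), in cTreg and eTreg, with 95% intervals and filled points where the adjusted p was under 0.05. The filled points at the far right are Casp1 and Casp4 in cTreg (1.26 and 1.20) with Tnfrsf23 at 1.04, and those at the far left are Lta in both subsets.

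Between the subsets, 12 of the 41 genes were higher and 19 lower in WT eTreg, and 12 were higher and 17 lower in KO eTreg. Of all genes 71.5% and 72.0% were called in these comparisons, so the pathway's counts lie near the background. Of the 14 adaptor and ubiquitin genes, 4 were higher in WT eTreg (Tnfaip3 0.59, Birc2 0.58, Cyld 0.46 and Map3k7 0.26 on the log2 scale) and 9 lower, of which Tradd and Rbck1 had the lowest values. Tnfaip3 passed in all 21 alternatives (0.34 to 0.66), and Birc2 did not pass with the length and GC offset (0.02). Offset values of Cyld and Map3k7 in WT are not given here. In KO cells Cyld was 0.51 higher in eTreg with TMM, but -0.15 with the offset, also past the threshold. Tradd, which bridges that receptor to RIPK1, was at 24.1 CPM in WT cTreg and 10.8 in WT eTreg (-1.15 ± 0.09), and Rbck1, which encodes HOIL-1 of the linear ubiquitin ligase, was at 187 and 86.8 CPM (-1.11 ± 0.05). Both stayed lower and past the threshold with the offset, at -0.54 and -0.53. Casp4 and Casp1 were higher in WT eTreg (2.26 ± 0.12 and 2.16 ± 0.16), and so was Tnfsf10 (1.32 ± 0.06).

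The genes most like each member over the 12 libraries were found by the root mean square difference of centred log2 CPM among 8423 genes, as a description. Nearest to Casp8 were Nat10 (0.061), Suclg2 (0.069) and Il2rb (0.070), which encodes the beta chain of the interleukin-2 receptor. Il2rb had group means of 664 CPM in WT cTreg, 506 in KO cTreg, 495 in WT eTreg and 452 in KO eTreg. Casp8's own spread on this scale was 0.214. Among the 3 nearest to Cflar were Utrn (0.038) and Gde1 (0.043), and to Fas St7l (0.083), Usp6nl (0.091) and Eif4enif1 (0.094). Among those nearest to Ripk3 were Mcm3 (0.120) and Msto1 (0.132), to Ripk1 Ube2z (0.048), Ppp4r1 and Crkl (0.055 each), and to Fadd Dtymk (0.079), Prkrip1 (0.086) and Elmod3 (0.096). The 12 points share 4 group means, so genes with the same group means look alike.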

How the data were processed

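The authors deposited raw counts for each gene symbol in 12 libraries of total RNA. Per the labels' protocols, a KAPA kit with ribosomal RNA removal was used. HISAT2 2.2.1, Cell Ranger and mm10 appear in the submitters' processing notes without roles. How and on which strand reads were counted is not given in the sources used here. Annotation was GENCODE vM21 and promoters RefSeq.

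The members, lists and naming rule were chosen with earlier results of these data known. All 6 members were named. Of the other pathway genes, the rule took up to 2 called genes in each direction per list and comparison with the largest change. Fasl was always taken, and some genes were left out for length. Some values outside the rule were added, such as Tnfrsf1a, Casp9 and Mlkl in KO against WT, and are given without their alternatives. A pathway gene, some markers and some genes near a member are not reported here, and that pathway gene is left out of the list counts. In R 4.3.3, edgeR 4.0.16 (filterByExpr, TMM, robust quasi-likelihood F-test, two-sided) was fitted to all 12 libraries, with Benjamini-Hochberg adjustment over 12461 genes in each of 5 contrasts and a threshold of 0.05. The common biological coefficient of variation was 0.0768, and the fit was checked on simulated data. CPM are TMM-scaled. SE is the log2 fold change over the square root of F.

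The alternatives were DESeq2 1.42.0 size factors and Wald test, limma-voom (limma 3.58.1), library size without Rn45s, 2 other filters, only the 6 libraries of a contrast, a spline offset on length and GC content, a replicate block and each library left out. Deviations from the group means of same-numbered WT and KO eTreg libraries correlated at 0.257, 0.341 and 0.166, against -0.315 to 0.0707 for unlike numbers. Deviations cancel within a group, so the values for unlike numbers are not independent of those for same numbers. A fit with the number as a block within the 6 eTreg libraries is given where it changes a member's call. Of the other pathway genes, that block called 12 in KO eTreg, 8 higher and 4 lower. Without a block 10 were called, 6 higher and 4 lower. The calls and counts given first come from the fit without a block. No label ties a number to a litter or day. In cTreg the values were -0.105, 0.00473 and 0.0622, with no pairing. Between same-numbered cTreg and eTreg libraries they were -0.0532, -0.175 and 0.0222 in WT and 0.229, 0.0386 and -0.0746 in KO. The main fit treats the subsets as unpaired, and whether same-numbered libraries share mice was not known. No 2 libraries of a group were duplicates (chi-squared per degree of freedom 3.62 to 9.94). The table's 27 month-like symbols count in totals and are not named.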

Additional observations from a re-analysis of the deposited data

Results flagged for a closer look

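The KO effect differed between the subsets for Casp8 and for 3 of the 41 other pathway genes tested. This was by edgeR's test of the difference itself (the effect in eTreg minus that in cTreg, log2 scale). Of all genes 3.80% passed that test, and 3 of 41 are too few to set against that share. Leaving out 1 library gave 1 to 3 of these pathway genes. For Casp8 the difference was 0.37 (adjusted p = 0.00315), with a fall of -0.51 in cTreg and a value of -0.14 in eTreg. For Casp4, which rose more in cTreg, it was -0.77 (adjusted p = 0.0178). For Tnfsf10 it was -0.39 (adjusted p = 0.0170), and leaving out WT cTreg 1 or 3, or KO cTreg 2 or 3, ended that call (adjusted p at most 0.0604). For Apaf1 it was -0.33 (adjusted p = 0.0443), and this was lost with limma-voom (0.0672), with the length and GC offset (0.0578) and without any 1 of 10 libraries, all but WT eTreg 3 and KO eTreg 2 (adjusted p at most 0.110).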

How the results depend on the processing

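Casp8 in KO cTreg (-0.59 to -0.49), its difference between the subsets (0.33 to 0.44) and Fas in KO eTreg (0.25 to 0.42) passed under every alternative run. A fit to the 6 eTreg libraries alone called 1712 genes and 5 members with the replicate block, adding Casp8, Ripk1 and Ripk3. Without the block that fit called 771 genes and 2 members, beside 829 and 2 in the fit to all 12 libraries. Over the 12 libraries the block changed no member's call but that of Ripk3 between the subsets in WT. Leaving out 1 library gave 455 to 890 genes and 1 to 3 members called in KO eTreg, lowest without WT eTreg replicate 2 (455), KO eTreg replicate 3 (462) or WT eTreg replicate 3 (497). It gave 1 to 2 members in KO cTreg, and for the difference of the KO effects 314 to 570 genes (314 without KO cTreg replicate 2) and 1 to 3 pathway genes (1 when cTreg replicate 1 or 3 of WT, or 2 or 3 of KO, was left out).

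The split of all called genes moved with scaling. So did the median of all genes with the length and GC offset. That median was -0.05 in KO cTreg, -0.15 between the subsets in WT, -0.08 in KO and 0.06 for the difference. With the length and GC offset it was 1514 higher and 2220 lower in KO cTreg (1847 and 1574 with TMM), 2625 and 5277 between the subsets in WT (4449 and 4465), 2856 and 4406 in KO (4503 and 4465), and 286 and 346 for the difference (100 and 374). Without Rn45s it was 301 and 546 in KO eTreg (405 and 424).

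Changes of sign were as follows, and the cause was not tested. With the offset, Fas gave -0.02 in KO cTreg. Between the subsets in WT, Cflar gave -0.19, Fas -0.16, Casp9 0.02 and Fasl -0.29. In KO cells Cflar gave -0.11, Ripk1 -0.28, Casp9 0.10, Cyld -0.15, Fasl -0.19, Lta 0.24 and Xiap -0.0021. The offset turned the Fadd difference to 0.02. Near 0, Fadd in KO cTreg gave 0.00046 (DESeq2 Wald), 0.0027 (no filter) and 0.00039 (block). Ripk1 between WT subsets gave 0.01 (DESeq2 size factors and Wald) and 0.07 (without Rn45s), and Casp8 between KO subsets 0.01, 0.01 and 0.03 in that order. Without Rn45s the differences were -0.0041 for Ripk1 and -0.0049 for Fasl. Leaving out 1 library, Fadd ranged from -0.10 to 0.11 in KO cTreg, from -0.10 to 0.01 in KO eTreg and from -0.16 to 0.05 for the difference. Ripk1 ranged from -0.05 to 0.04 between WT subsets, from -0.03 to 0.05 between KO subsets and from -0.03 to 0.07 for the difference, and the Fasl difference from -0.08 to 0.13. The longest transcript moved the Cflar to Casp8 ratio to 0.330, 0.516, 0.491 and 0.619. Precision was lowest for genes of few reads: the SEs of Mlkl and Tnfrsf23 in KO cTreg were 0.27 and 0.26.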
